A study of Mus musculus with 15 samples.

Results

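B4 SINE piRNAs are the small RNAs of mouse testis that fell on repeats of the class SINE and the family B4. The deposited count files list each distinct piRNA as a locus with its chromosome, start, end, strand, repeat and read count, and every locus that carried this class and family in any of the 15 files was taken. This gave 78264 B4 loci among 8128951 loci in all. The RNA came from testis of male C57Bl/6 mice aged 8 weeks, with no other allele or treatment of the animals named, and was cut from a gel at 17 to 40 nt. In the first experiment, small RNA was treated with CMC, a carbodiimide that forms an adduct on pseudouridine (Ψ) and stops reverse transcriptase, or was mock-treated, and the libraries were made with a NEBNext kit. In the second experiment, small RNA was immunoprecipitated with an antibody against Ψ (Ψ-IP), the input and the unbound flow-through were sequenced beside it, and the libraries were made with a Perkin Elmer Nextflex v3 kit. Each of the 5 groups (mock-treated, CMC-treated, input, flow-through and Ψ-IP) held 3 libraries. The sources used here do not say that the libraries of a group came from separate mice, so p-values measure only the spread between these libraries, which may be technical.

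piRNAs are bound by PIWI proteins in germ cells and guide the silencing of transposable elements. In spermatocytes most of them are cut from long, single-stranded transcripts of piRNA clusters, and repeats embedded in those transcripts give rise to repeat piRNAs. Primary piRNAs usually start with uridine, whereas secondary piRNAs of the ping-pong cycle tend to carry adenosine at position 10 and to overlap a partner of the opposite strand by 10 nt at the 5′ end. B4 elements are short rodent retrotransposons that join a part related to the tRNA-derived ID elements to a part related to B1. Ψ is an isomer of uridine made by pseudouridine synthases and reads as uridine in ordinary sequencing, which is why an antibody or a chemical adduct was used to detect it.

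Sequences could be read for loci within annotated exons, from the GENCODE vM21 transcripts on GRCm38 (the same build as mm10, to which the reads were mapped), and 782 of the 5097 B4 loci tested in the Ψ-IP experiment had one. They are shown 5′ to 3′ as DNA, with capitals at positions 1 and 10, the positions at which primary and secondary piRNAs differ. The first 8 are loci of the names ID, B4 and RSINE1 that had a sequence, 6 with A at position 10 and 2 with T there, and their levels in the Ψ-IP experiment are compared below.
4933404O12Rik ID, 29 nt: TacaaagtgAgtgtgagactagcctgggt
1700097M23Rik ID, 29 nt: GcaagtttgAggctttttctgtttgaaga
1700097M23Rik ID, 30 nt: TaaaagataAaattgtgagaggaagggaag
D130017N08Rik B4, 30 nt: TgccaggctAgctgatccatgaactccaga
4930444F02Rik B4, 29 nt: TgggactcaTcggatggctagcctaatct
4930444F02Rik B4, 30 nt: TacttagaaActataggccagtaagagact
D130017N08Rik RSINE1, 29 nt: TacgttagaAcaagttgactcctccatgt
D130017N08Rik RSINE1, 30 nt: TagaacaagTtgactcctccatgtgtcctc
D130017N08Rik RSINE1, opposite strand, 30 nt: TtctaacgtAtgggtcctggggacagaact
The last, on the opposite strand, has a 5′ end that overlaps that of the 29-nt RSINE1 locus by 10 nt. Both start with T, so the A at position 10 of each is set by the overlap. The first ID locus lies at chr5:136935001-136935029 on the plus strand in an exon of 4933404O12Rik, and the pair of ID loci lie at chr6:81895311-81895339 and chr6:81895270-81895299 on the minus strand in an exon of 1700097M23Rik. The B4 loci lie at chr5:143765687-143765716 on the plus strand in an exon of D130017N08Rik and at chr10:18799777-18799805 (29 nt) and chr10:18799748-18799777 (30 nt) on the minus strand in an exon of 4930444F02Rik, opposite an intron of Gm32926. The RSINE1 loci lie at chr5:143764918-143764946 and chr5:143764923-143764952 on the plus strand in an exon of D130017N08Rik, and their partner lies at chr5:143764898-143764927 on the minus strand. The annotation gives no coding sequence for these exons.

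Among the 782 tested B4 loci with a sequence, 83.1% started with T (U in RNA), beside 85.7% of the 102714 loci of all kinds with a sequence. A stood at position 10 in 41.6% of them, beside 28.7% of all loci with a sequence. The letters TNTAA or TNTAG, which spell the UNUAR motif of the Ψ synthase PUS7 and were searched on the piRNA strand alone, were in 16.6% of the B4 sequences and in 22.3% of all sequences, and a sequence can hold both. The letters GTTCNANNC, which hold the tRNA T-loop site of Ψ and were searched on the same strand, were in 0.639% and 0.334%. Only 15.3% of the tested B4 loci had a sequence, and 3 of the 1757 tested B4A loci did, so these shares describe exonic loci. T stood at position 1 in 100% of the 29 such loci called higher in Ψ-IP than in input, in 83.1% of the 65 called lower and in 82.4% of the 688 not called. A stood at position 10 in 51.7%, 55.4% and 39.8% of them. Many of these loci overlap, and no test was made between the shares.

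Total counts ranged from 11575705 to 58399368 per library, of which B4 loci took 65132 to 204405. The B4 share was 0.347% ± 0.005 in mock-treated libraries, 0.351% ± 0.007 in CMC-treated libraries, 0.602% ± 0.019 in input, 0.618% ± 0.008 in flow-through and 0.566% ± 0.007 in Ψ-IP (mean ± SD, n = 3). It was higher in every library of the Ψ-IP experiment than in any of the CMC experiment, and the kit and the experiment cannot be told apart. Most B4 loci were counted a few times only: 5097 loci (6.51%) had more than 20 counts over the 9 libraries of the Ψ-IP experiment and were tested there, and these held 83.5% of its B4 counts. In the CMC experiment 3808 loci (4.87%) passed the same minimum over 6 libraries and held 85.3% of the B4 counts.

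The B4 family holds 4 repeat names in these files. No repeat name in the files holds the sign "_", so the name they spell ID may be the B4 repeat ID_B1 of the UCSC annotation. It is not the separate SINE family ID, to which the same files give 4917 loci. ID covered 25159 loci (32.1%), B4A 20677 (26.4%), RSINE1 17884 (22.9%) and the name B4 itself 14544 (18.6%). B4A was the leading name in the CMC experiment, with 39.8% ± 0.24 of B4 counts in mock-treated libraries, and ID was the leading name in the Ψ-IP experiment, with 36.4% ± 0.87 in input. ID reached 41.4% ± 1.5 of B4 counts in Ψ-IP, whereas B4A stood at 27.8% ± 1.03 there and at 32.1% ± 0.34 in input.

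**Figure D1:**
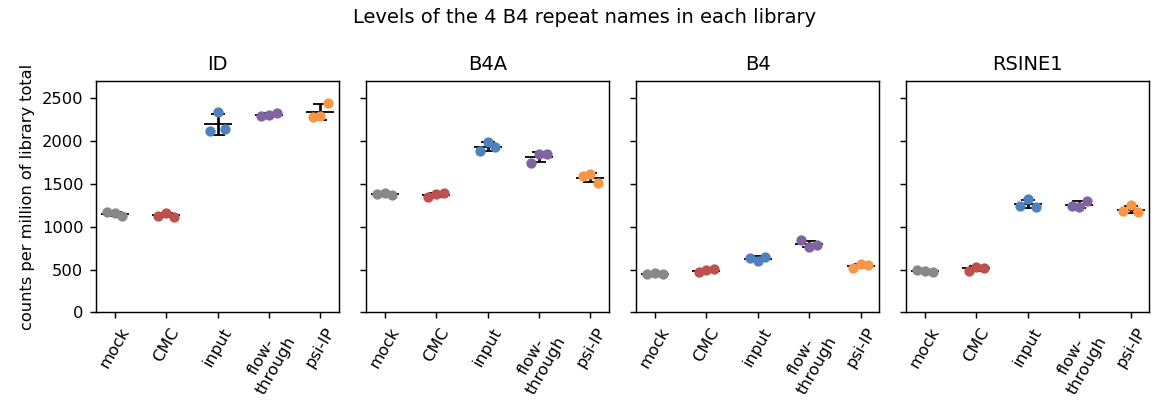
CPM of the library total (y axis) for the 4 B4 repeat names in each of the 15 libraries (points), with the group mean and SD (bars) for the 5 groups on the x axis. All 4 names stand higher in the 9 libraries of the Ψ-IP experiment than in the 6 of the CMC experiment, and the B4 name stands lower in Ψ-IP than in flow-through.

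B4 piRNAs came from few genomic copies. Joining loci of 1 name and strand across gaps of up to 100 nt gave 1392 copies, of which the 10 most abundant held 42.3% of B4 CPM (counts scaled to a library total of 1000000) and the 50 most abundant held 84.1%. The 78264 loci shared 24308 distinct 5′ ends, and the 100 most abundant ends held 47.5% of the CPM. Of the 6925 loci tested in either experiment, 55.8% lay outside annotated genes, 17.5% in an intron of a gene on the same strand, 13.5% in a gene on the opposite strand only, 7.52% in a noncoding exon and 5.75% in a UTR or coding sequence.

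Whether B4 piRNAs as a family are held by the Ψ antibody was asked with the sum of their counts. In CPM scaled to the TMM library sizes of each comparison, the family summed to 5823, 6152 and 5856 CPM in input and to 5645, 5785 and 5763 CPM in Ψ-IP, and the groups did not overlap. The log2 change was −0.05 (SE 0.03, edgeR adjusted p = 0.138 over 34 families), so it was not called. Without 1 library it ran from −0.064 to −0.0098. In flow-through the sum was 6426, 6193 and 6199 CPM, and beside it Ψ-IP held 5469, 5562 and 5682 CPM on the scale of that comparison. Here the family was lower in Ψ-IP, with a log2 change of −0.17 (SE 0.04, edgeR adjusted p = 0.00239), and 29.4% of the families were called lower and 23.5% higher. This call was lost with DESeq2 size factors (adjusted p = 0.0124), with the DESeq2 test (adjusted p = 0.0688), without Ψ-IP replicate 1 (adjusted p = 0.0228) and without Ψ-IP replicate 2 (adjusted p = 0.0106).

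The names did not move alike. B4A fell in Ψ-IP against input, from 1868, 1982 and 1911 CPM to 1580, 1651 and 1518 CPM (log2 change −0.28, SE 0.05, edgeR adjusted p = 0.00101), a comparison in which 10.1% of 547 repeat names were called lower and 11.3% higher. It fell against flow-through as well (log2 change −0.21, SE 0.05, edgeR adjusted p = 0.00558). That result did not hold with the DESeq2 test (adjusted p = 0.0120) or without flow-through replicate 2 (0.0661), flow-through replicate 3 (0.0434), Ψ-IP replicate 1 (0.0301) or Ψ-IP replicate 3 (0.0642). The B4 name fell against flow-through, from 847, 777 and 773 CPM to 515, 564 and 560 CPM (log2 change −0.55, SE 0.06, edgeR adjusted p = 3.2e-05), where 18.3% of names were called lower and 18.6% higher. Against input its change of −0.18 (SE 0.06) was not called (edgeR adjusted p = 0.0295). ID, at 2179 ± 130 CPM in input and 2355 ± 97.8 CPM in Ψ-IP (n = 3), and RSINE1, at 1256 ± 52.0 and 1208 ± 63.8 CPM, were not called in either comparison.

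Ratios of B4 to other SINE families within a library need no scaling between libraries. Against MIR, an old tRNA-derived SINE family, the log2 ratio of B4 counts was −0.97 ± 0.09 in input and −0.73 ± 0.09 in Ψ-IP, and it was higher in all 9 pairs of libraries (exact permutation test, two-sided, p = 0.1, adjusted p = 0.3 over 3 families). Against Alu, the family under which the files list B1, the ratio rose by 0.03 on average between input and Ψ-IP (exact permutation p = 0.7). Against flow-through the log2 ratio was higher in Ψ-IP in 9 of 9 pairs for each of 3 families, by 0.39 for Alu, 0.25 for B2 and 0.13 for MIR (exact permutation p = 0.1, adjusted p = 0.1 for each). With 3 libraries a group, 0.1 is the smallest p that the exact test can give. B4 was thus lower than flow-through on the TMM scale while its ratio to each of these SINE families was higher.

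At the level of single piRNAs, 210 of the 5097 tested B4 loci were higher in Ψ-IP than in input (4.12%) and 515 were lower (10.1%) by edgeR at an adjusted p under 0.01. Over all 686863 loci tested, 5.45% were called higher and 10.7% lower, so the B4 shares stood near or below the background. Loci with low counts can rarely be called, so the calls were also counted over loci averaging 20 counts or more. Of 745 such B4 loci, 127 were higher (17.0%, beside 18.0% of all such loci) and 203 were lower (27.2%, beside 24.8%). Their median log2 change was −0.30, beside −0.05 over all such loci. B4A had 67 higher and 207 lower of 1757 tested loci, the B4 name 26 and 104 of 837, RSINE1 41 and 92 of 963 and ID 76 and 112 of 1540. With DESeq2 125 loci were higher and 302 lower, and with no minimum count 100 were higher. The counts also depended on the input libraries: without input replicate 1 there were 94 loci higher and 289 lower, without input replicate 2 there were 139 higher, and without input replicate 3 there were 96 higher and 332 lower.

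**Figure D2:**
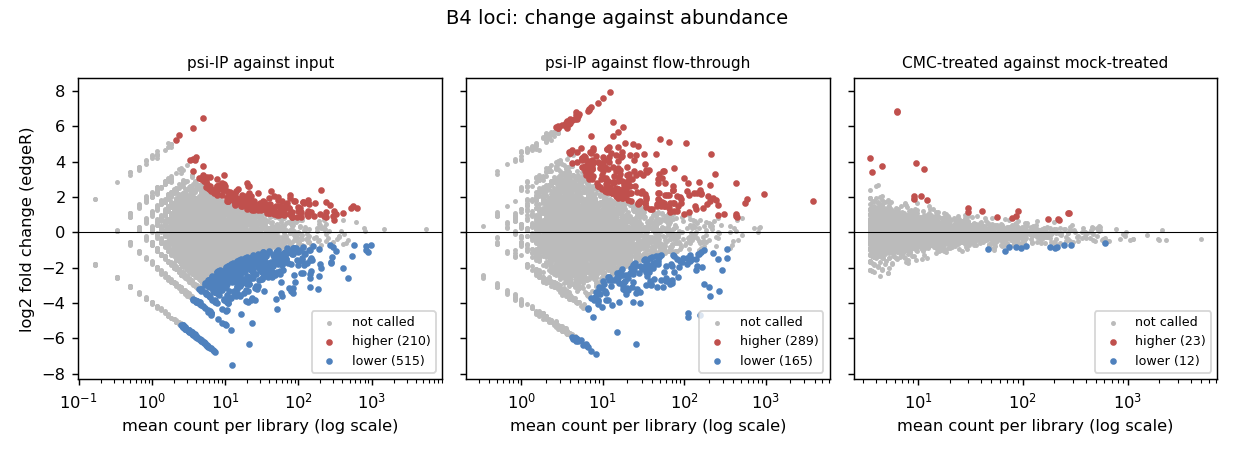
Log2 fold change of each tested B4 locus (y axis) against its mean count per library (x axis, log scale) in the 3 comparisons, with called loci in red (higher) and blue (lower) and the other loci in grey. Called loci lie on both sides of 0 in both Ψ-IP comparisons (210 higher and 515 lower against input, 289 higher and 165 lower against flow-through), whereas 35 loci were called with CMC.

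By the mean CPM over all 15 libraries, the most abundant B4 piRNA was a 29-nt ID locus at chr9:44149032-44149060 on the minus strand, in the UTR of Cbl, which encodes a ubiquitin ligase. It held 263, 419 and 266 CPM in input and 255, 370 and 470 CPM in Ψ-IP, groups that overlap, and was not called (log2 change 0.21, SE 0.19, edgeR adjusted p = 0.438). Its rank comes from the Ψ-IP experiment, for it held 6.68 ± 1.51 CPM in mock-treated libraries (n = 3). A 30-nt ID locus at chr17:27294936-27294965 on the minus strand, outside annotated genes, held 149 ± 11.5 CPM in mock-treated libraries and 21.2, 21.7 and 14.1 CPM in input. It held 55.8, 51.0 and 56.5 CPM in Ψ-IP, every library above every input library, and rose with a log2 change of 1.52 (SE 0.21, edgeR adjusted p = 1.96e-10). A 31-nt B4A locus at chr9:67719444-67719474 on the minus strand, outside annotated genes, went the other way, from 74.6, 78.2 and 77.8 CPM to 59.1, 39.9 and 41.1 CPM (log2 change −0.72, SE 0.20, edgeR adjusted p = 0.00341). That call was lost without any 1 input library, without Ψ-IP replicate 2 or without Ψ-IP replicate 3, at adjusted p between 0.0119 and 0.0295. It was also lost with no minimum count (adjusted p = 0.0863). A pair of 29-nt B4A loci on chromosome 4, described below, fell by 1.11 and 1.03 on the log2 scale.

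The largest rises against input among loci averaging 20 counts or more were in 2 B4A loci and 1 ID locus, none in an annotated gene. The 30-nt B4A locus at chr6:81898578-81898607 on the minus strand went from 0.471, 0.354 and 0.187 CPM to 1.82, 3.44 and 2.11 CPM. It passed the minimum of more than 20 counts only through the Ψ-IP libraries, so its direction was set by the minimum and no test is given. The 30-nt B4A locus at chr18:67035315-67035344 on the minus strand rose by a log2 change of 2.63 (SE 0.44), and the 31-nt ID locus at chr7:73136439-73136469 on the plus strand by 2.62 (SE 0.45). In each of the 3 loci every Ψ-IP library stood above every input library, and each reached an average of 20 counts only through those Ψ-IP libraries. The largest falls among such loci were again outside genes. The 30-nt ID locus at chr15:78666273-78666302 on the minus strand was at 2.35, 1.84 and 3.06 CPM in input and at 0, 0 and 0.0468 CPM in Ψ-IP, the last being a single count, so no fold is given. A 31-nt B4A locus at chr17:27297404-27297434 on the minus strand fell from 7.20, 4.32 and 5.06 CPM to 0.433, 0 and 0.327 CPM (log2 change −4.32, SE 0.41). The 32-nt locus that starts 1 nt further 5′, at chr17:27297404-27297435, was at 2.12 to 2.87 CPM in input and at 0 to 0.0936 CPM in Ψ-IP. Each of these 3 loci reached an average of 20 counts only through the input libraries.

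Of the loci whose sequences are printed above, the 30-nt locus of D130017N08Rik under the B4 name rose from 2.35, 2.55 and 2.37 CPM in input to 4.59, 7.06 and 6.08 CPM in Ψ-IP (log2 change 1.28, SE 0.29, edgeR adjusted p = 0.00014). The 30-nt ID locus of 1700097M23Rik rose from 5.32, 5.09 and 7.50 CPM to 16.3, 11.1 and 12.8 CPM (log2 change 1.16, SE 0.25, edgeR adjusted p = 4.39e-05), whereas the 29-nt ID locus of the same exon was at 28.4, 20.7 and 20.9 CPM and then at 18.5, 18.8 and 17.3 CPM and was not called (log2 change −0.36, SE 0.22, edgeR adjusted p = 0.228). Neighbouring loci of 1 exon thus differed in their values. The ID locus of 4933404O12Rik was not called against input (log2 change 0.32, SE 0.23, edgeR adjusted p = 0.327). Neither were the loci with T at position 10, the 29-nt locus of 4930444F02Rik (log2 change 0.11, SE 0.32, edgeR adjusted p = 0.834) and the 30-nt RSINE1 locus of D130017N08Rik (log2 change −0.61, SE 0.31, edgeR adjusted p = 0.136).

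piRNAs that share a 5′ end can differ in their 3′ end, and their calls were set side by side. Of 1094 B4 5′ ends with at least 2 tested lengths, 736 had no call and 196 had 1. Of the 162 with at least 2 calls, 41 had them in the higher direction only (25.3%), 119 in the lower direction only (73.5%) and 2 in both (1.23%), beside 32.4%, 64.1% and 3.53% of 25635 such ends over loci of all kinds. Over loci averaging 20 counts or more there were 77 B4 ends with at least 2 calls, 29 in the higher direction only (37.7%), 48 in the lower only (62.3%) and 0 in both, beside 40.02%, 56.2% and 3.74% of 13434 ends. From the 5′ end at chr18:67035349 on the minus strand (B4A), the 5 lengths that averaged 20 counts or more, 27 to 31 nt, all rose against input, the 29-nt form from 169, 88 and 109 counts in input to 259, 216 and 571 counts in Ψ-IP (log2 change 1.72, SE 0.24, edgeR adjusted p = 3.98e-11). From the 5′ end at chr17:27294965, that of the abundant ID locus above, the lengths from 27 to 31 nt rose, with log2 changes of 1.18 to 1.83. From the 5′ end at chr17:27297435 on the minus strand (B4A), the 25-nt form fell by 2.48 and the 31-nt form fell by 3.46 on the log2 scale. The 2 ends with both directions were RSINE1, and in each the forms that fell averaged under 20 counts. At chr11:103434206 on the plus strand the 26-nt form fell by 1.72 (SE 0.54, edgeR adjusted p = 0.00918) while the 30-nt form rose by 0.71 (SE 0.22, edgeR adjusted p = 0.0093) and the 32-nt form by 1.10 (SE 0.29, edgeR adjusted p = 0.0014). At chr15:59276035 on the plus strand, in an intron of Gm36617, the 26-nt form fell by 3.2 and the 32-nt form fell by 1.9, while the 29-nt form rose by 1.28 on the log2 scale. Overlapping loci share their source, so these loci are not independent of each other.

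Summed over copies, 29 of 564 tested B4 copies were higher in Ψ-IP than in input and 41 were lower, beside 5.77% and 7.14% of all 5740 copies tested. The lower count was 26 with the DESeq2 test, 26 without input replicate 1 and 25 without input replicate 3, and the higher count was 19 without input replicate 3. The ID copy at chr17:27294823-27295028, the second in mean CPM over all 15 libraries and the first of the named copies in mock-treated libraries, rose from 146, 170 and 129 CPM to 216, 208 and 209 CPM (log2 change 0.51, SE 0.10, edgeR adjusted p = 0.000102). The first over all 15 libraries, the ID copy in the UTR of Cbl at chr9:44148875-44149072, held a mean of 79.2 CPM of the library total in mock-treated libraries, and it held 394, 589 and 413 CPM in input and 433, 579 and 665 CPM in Ψ-IP and was not called (edgeR adjusted p = 0.123). Without input replicate 2 it was called, with a log2 change of 0.47 (adjusted p = 0.000919), and likewise without Ψ-IP replicate 1 (log2 change 0.44, adjusted p = 0.00381). The third, the B4A copy at chr6:81898504-81898796, had a log2 change of −0.29 (SE 0.09) that was not called (edgeR adjusted p = 0.0168) but was called without Ψ-IP replicate 2 (log2 change −0.37, adjusted p = 0.00161) and with the replicate block (log2 change −0.29, adjusted p = 0.0018). Among copies averaging 20 counts or more, the largest called fall was in a copy of the B4 name at chr6:127827092-127827181 on the plus strand, outside genes, which went from 40.1, 34.9 and 44.3 CPM to 7.96, 11.7 and 8.55 CPM (log2 change −2.10, SE 0.14, edgeR adjusted p = 2.68e-14). Among the same copies, the largest called rise was in a copy of that name at chr7:38313099-38313397 on the plus strand, in an intron of Gm44767 and opposite an intron of Gm9220, from 0.743, 1.02 and 0.471 CPM to 2.97, 2.48 and 1.71 CPM (log2 change 1.64, SE 0.33). This copy reached an average of 20 counts only through the Ψ-IP libraries.

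**Figure D3:**
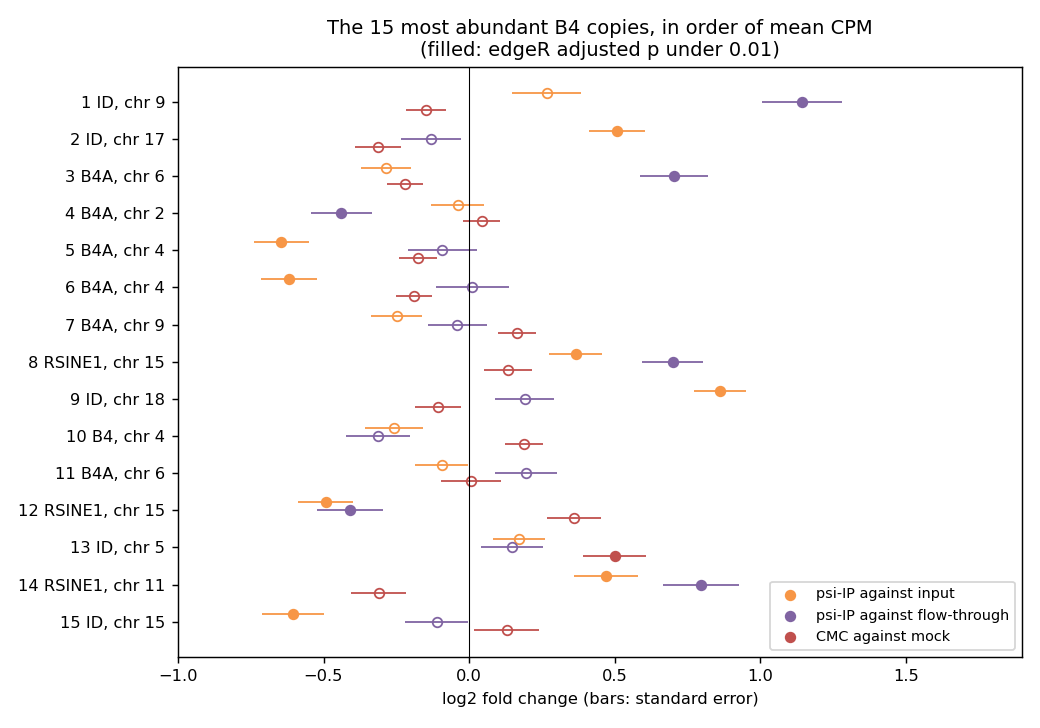
Log2 fold change with its standard error (x axis) of the 15 most abundant B4 copies (y axis, ordered by mean CPM) in the 3 comparisons, with filled points where the edgeR adjusted p was under 0.01. The Ψ-IP changes run in both directions, from −0.65 to 0.86 against input and from −0.44 to 1.14 against flow-through, and 1 of the 15 copies is filled for CMC.

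Ψ-IP was next set against flow-through, the RNA that the antibody did not bind in the same experiment. This comparison shares its Ψ-IP libraries with the comparison against input. Among the 5097 tested B4 loci, 289 were higher in Ψ-IP (5.67%, beside 9.30% of all loci) and 165 were lower (3.24%, beside 3.56%). Of 740 B4 loci averaging 20 counts or more, 120 were higher (16.2%, beside 24.4% of all such loci) and 98 were lower (13.2%, beside 13.6%). Their median log2 change was −0.20, beside −0.03. Without Ψ-IP replicate 2 the lower count was 109, and with no minimum count 192 loci were higher and 101 lower. ID gave 105 loci higher and 57 lower, B4A 98 and 54, RSINE1 64 and 20 and the B4 name 22 and 34.

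The 29-nt ID locus in the UTR of Cbl, not called against input, was at 61.8, 153 and 151 CPM in flow-through and at 284, 420 and 553 CPM in Ψ-IP, every library above every flow-through library. It rose with a log2 change of 1.78 (SE 0.24, edgeR adjusted p = 5.78e-12). The copy that holds it rose too, from 209, 312 and 286 CPM to 460, 615 and 707 CPM (log2 change 1.14, SE 0.14, edgeR adjusted p = 2.89e-07). The 29-nt ID locus of 1700097M23Rik was of the same kind, at 3.66, 7.38 and 9.91 CPM in flow-through and at 20.7, 21.3 and 20.4 CPM in Ψ-IP (log2 change 1.58, SE 0.30, edgeR adjusted p = 2.86e-06). Conversely, the 30-nt ID locus on chromosome 17 that rose against input was at 43.9, 58.6 and 51.9 CPM in flow-through and at 62.3, 58.0 and 66.5 CPM in Ψ-IP and was not called (log2 change 0.28, SE 0.25, edgeR adjusted p = 0.496).

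Among loci averaging 20 counts or more, the largest rises against flow-through were in 3 RSINE1 loci that overlap each other at chr4:94290045-94290076 on the minus strand, in an intron of Gm12648. The 30-nt form was at 0.570, 0.451 and 0.496 CPM in flow-through and at 10.9, 27.8 and 12.8 CPM in Ψ-IP (log2 change 5.05, SE 0.40). The 31-nt forms had log2 changes of 5.30 (SE 0.49) and 5.12 (SE 0.44). Each of these 3 loci reached an average of 20 counts only through the Ψ-IP libraries. Against input the same 30-nt form was at 9.51, 11.7 and 10.6 CPM and at 9.78, 24.4 and 10.9 CPM and was not called (edgeR adjusted p = 0.103). The 31-nt form at chr4:94290045-94290075 rose against input, from 3.48, 3.33 and 4.62 CPM to 6.15, 9.57 and 5.57 CPM (log2 change 0.88, SE 0.27, edgeR adjusted p = 0.00743). That call was lost with DESeq2 (adjusted p = 0.0192) and without any 1 input library or Ψ-IP replicate 2 (adjusted p between 0.0231 and 0.114). The largest falls among such loci were in short ID loci that share a 5′ end at chr18:67042419 on the minus strand, outside genes. The 27-nt form was at 19.1, 17.2 and 15.1 CPM in flow-through, at 0.483, 0.528 and 0.882 CPM in Ψ-IP (log2 change −4.68, SE 0.40) and at 1.08, 1.20 and 0.812 CPM in input. The 24-nt form fell by 4.77 on the log2 scale (SE 0.44), and the 23-nt form was at 2.71, 3.89 and 1.84 CPM in flow-through and at 0.0966, 0 and 0 CPM in Ψ-IP. The 23-nt form passed the minimum only through the flow-through libraries, so its direction was set by the minimum and no test is given. Each of these 3 forms stood higher in every flow-through library than in any input or Ψ-IP library. They reached an average of 20 counts only through the flow-through libraries.

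The printed 30-nt locus of 4930444F02Rik (B4) and 29-nt locus of D130017N08Rik (RSINE1) rose against flow-through, from 4.13, 2.54 and 2.62 CPM to 6.95, 11.1 and 11.5 CPM (log2 change 1.66, SE 0.34, edgeR adjusted p = 1.82e-05) and from 5.46, 7.78 and 6.30 CPM to 13.7, 16.9 and 20.3 CPM (log2 change 1.39, SE 0.30, edgeR adjusted p = 8.4e-05). Against input neither was called, at log2 changes of 0.31 (SE 0.25, edgeR adjusted p = 0.392) and 0.63 (SE 0.23, edgeR adjusted p = 0.0316). Apart from these loci and the 29-nt ID locus of 1700097M23Rik, the printed loci had negative changes against flow-through that were not called. The 30-nt locus of D130017N08Rik under the B4 name, which rose against input, was at 8.79, 8.62 and 8.21 CPM in flow-through and at 5.12, 8.03 and 7.16 CPM in Ψ-IP, every library below every flow-through library (log2 change −0.33, SE 0.32, edgeR adjusted p = 0.513). The 30-nt ID locus of 1700097M23Rik, which also rose against input, had a log2 change of −0.32 (SE 0.28, edgeR adjusted p = 0.471), and the ID locus of 4933404O12Rik one of −0.72 (SE 0.28, edgeR adjusted p = 0.044). The loci with T at position 10 had log2 changes of −1.03 (SE 0.35, edgeR adjusted p = 0.023) at 4930444F02Rik and −1.05 (SE 0.37, edgeR adjusted p = 0.026) at D130017N08Rik. The RSINE1 partner on the opposite strand was low, at 0.344 ± 0.154 CPM in Ψ-IP and 0.398 ± 0.159 CPM in input (n = 3), and was not called in either comparison. Of the copies, 31 of 564 were higher than flow-through and 37 were lower, beside 9.13% and 6.76% of all copies. Among copies averaging 20 counts or more, the largest called rise was in an ID copy at chr18:14761945-14762078 on the plus strand, in the UTR of Psma8, which encodes a testis-specific proteasome subunit, from 1.11, 0.258 and 1.02 CPM to 4.59, 5.84 and 4.27 CPM (log2 change 2.60, SE 0.36). Among them the largest called fall was in an ID copy at chr15:79941302-79941413 on the plus strand, opposite an intron of Cbx7, which encodes a Polycomb protein, from 2.09, 2.17 and 1.66 CPM to 0.270, 0.188 and 0.409 CPM (log2 change −2.64, SE 0.47). The Psma8 copy reached an average of 20 counts only through Ψ-IP, and the copy opposite Cbx7 only through flow-through. The B4A copy at chr17:27297399-27297561 was lower than both controls, with log2 changes of −1.44 against input (SE 0.09) and −1.01 against flow-through (SE 0.12).

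Few B4 loci were called after CMC. Of the 3808 tested B4 loci, 23 were higher after CMC (0.604%, beside 1.07% of all 556583 loci tested) and 12 were lower (0.315%, beside 0.654%). In this assay a stop at Ψ lowers a count. As in the Ψ-IP experiment, a change in a locus of low count can rarely be called. Of 941 B4 loci averaging 20 counts or more, 12 were lower (1.28%, beside 1.99% of all such loci) and 12 were higher (1.28%, beside 1.82%). With the replicate number as a block, 25 were higher (0.657%, beside 1.24% of all loci under the same block) and 34 lower (0.893%, beside 1.03%). Leaving out 1 library moved the lower count to 44 without CMC replicate 1, 6 without mock replicate 1, 3 without mock replicate 2, 4 without CMC replicate 2 and 5 without CMC replicate 3, and the higher count to 9 without mock replicate 2, 13 without mock replicate 3, 12 without CMC replicate 2 and 15 without CMC replicate 3. With no minimum count 14 were higher and 7 lower. DESeq2 called 11 higher and 10 lower, which moved the higher share of calls from 65.7% to 52.4%. The family sum was 3410, 3519 and 3331 CPM in mock-treated libraries and 3515, 3605 and 3574 CPM after CMC and was not called (log2 change 0.06, SE 0.03, edgeR adjusted p = 0.186), where 8.82% of families were called higher and none lower. Without 1 library the log2 change of the family sum ran from 0.0046 to 0.081. Within a library the ratio of B4 to other SINE families did not follow that sum. It was lower after CMC in all 9 pairs of libraries against Alu (log2 difference −0.10) and against MIR (−0.15), with an exact permutation p = 0.1 and an adjusted p = 0.15 for each, and differed by 0.00 against B2 (exact permutation p = 1). Of the 4 B4 names edgeR called 0, as did DESeq2, and 1 (the B4 name, log2 change 0.08, SE 0.03) had an unadjusted p under 0.05, where 1.87% of names were called higher and 3.74% lower.

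The largest fall after CMC was in a 30-nt RSINE1 locus at chr15:79947216-79947245 on the plus strand, opposite an intron of Cbx7. It was at 2.25, 2.65 and 2.11 CPM in mock-treated libraries and at 1.18, 1.12 and 1.10 CPM after CMC (log2 change −1.04, SE 0.20, edgeR adjusted p = 0.000846), and was not called without mock replicate 2 (adjusted p = 0.0333). A 31-nt B4A locus at chr6:81898724-81898754 on the minus strand, outside genes, fell from 7.44, 6.50 and 7.15 CPM to 4.15, 3.87 and 3.22 CPM (log2 change −0.89, SE 0.15, edgeR adjusted p = 0.00011). A 30-nt locus of the B4 name at chr8:110128301-110128330 on the plus strand, outside genes, had a log2 change of −0.97 (SE 0.23, edgeR adjusted p = 0.0094). It was not called in DESeq2 (adjusted p = 0.0457), nor without any 1 of 5 libraries. In each of the 3 loci every CMC library stood below every mock library. The largest rise among loci averaging 20 counts or more was in a 29-nt ID locus at chr6:128444230-128444258 on the plus strand, in an intron of Gm10069. It went from 0.486, 0.593 and 0.329 CPM to 1.32, 1.17 and 1.25 CPM (log2 change 1.38, SE 0.27, edgeR adjusted p = 0.000708). Next were a 23-nt B4A locus at chr4:62221879-62221901 on the minus strand (log2 change 1.23, SE 0.18, edgeR adjusted p = 9.1e-06) and a 25-nt B4A locus at chr12:98439050-98439074 on the plus strand (log2 change 1.20, SE 0.25, edgeR adjusted p = 0.00139). The first was lost without mock replicate 3 (adjusted p = 0.0119), and the last without mock replicate 2 (0.0435), mock replicate 3 (0.0107) or CMC replicate 2 (0.0369).

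Some loci that rose after CMC were shortened at the 5′ end, having the 3′ end of a more abundant locus and a 5′ end 1 to 3 nt inside it. Of the 12 that averaged 20 counts or more, 5 were of this kind, beside 109 of all 941 such loci tested (11.6%), and those 5 all lay in a pair of B4A copies on chromosome 4 described next. Outside that pair 0 of 7 were, beside 77 of 795 tested (9.69%). Among the 5 was the 26-nt form at chr4:62237624-62237649 on the plus strand, at 180, 232 and 193 counts in mock-treated libraries and 499, 233 and 306 counts after CMC (log2 change 1.11). The 11 that averaged under 20 counts were all shortened, 6 of them outside the pair. Such loci passed the minimum mainly or wholly through the CMC libraries. The 30-nt form at chr17:27294935-27294964, for instance, had 0, 0 and 0 counts in mock-treated libraries and 18, 10 and 10 after CMC, so its direction was set by the minimum, and no share over these 11 is read as a result.

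Of the 35 loci called after CMC, 17 lay in a pair of B4A copies on chromosome 4 that could not be told apart in the counts. One lies at chr4:62221852-62222016 on the minus strand, in an intron of Zfp37, which encodes a zinc-finger protein, and the other at chr4:62237512-62237705 on the plus strand, outside genes. Over all 1225 pairs of the 50 most abundant B4 copies, aligned on their top loci, this pair shared 91.6% of its counts by position and length and the next pair 33.05%. They had 758 loci in common, which held 99.7% and 97.7% of the counts of each copy. Over the 102 common loci with more than 200 counts the log2 ratio of their counts ran from −0.36 to 0.39 with a median of 0.00. Whether reads of one were placed at the other was not tested, so calls in both may rest on the same reads. The 29-nt top locus was at 74.6 ± 7.81 CPM in input and 34.4 ± 10.7 CPM in Ψ-IP at the minus-strand copy (log2 change −1.11, SE 0.21, edgeR adjusted p = 2.4e-06), and at 69.5 ± 6.69 and 34.1 ± 7.53 CPM at the plus-strand copy (log2 change −1.03, SE 0.21, edgeR adjusted p = 1.71e-05, n = 3). Against flow-through both were higher in Ψ-IP, by log2 changes of 0.87 (SE 0.27, edgeR adjusted p = 0.00955) and 0.94 (SE 0.27, edgeR adjusted p = 0.0045). Neither was called without flow-through replicate 1 or 3 or without Ψ-IP replicate 2 or 3, at adjusted p between 0.0136 and 0.189. Both calls were also lost with more than 60 counts (adjusted p = 0.0360 and 0.0164) and with no minimum count (0.159 and 0.0918). The minus-strand locus was not called with DESeq2 (0.0320) or with loci of 24 to 33 nt alone (0.0153). After CMC they had log2 changes of −0.42 (edgeR adjusted p = 0.0293, and 0.00593 with the replicate block) and −0.38 (edgeR adjusted p = 0.0652), and were called without CMC replicate 1 (adjusted p = 0.00124 and 0.00378).

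**Figure D4:**
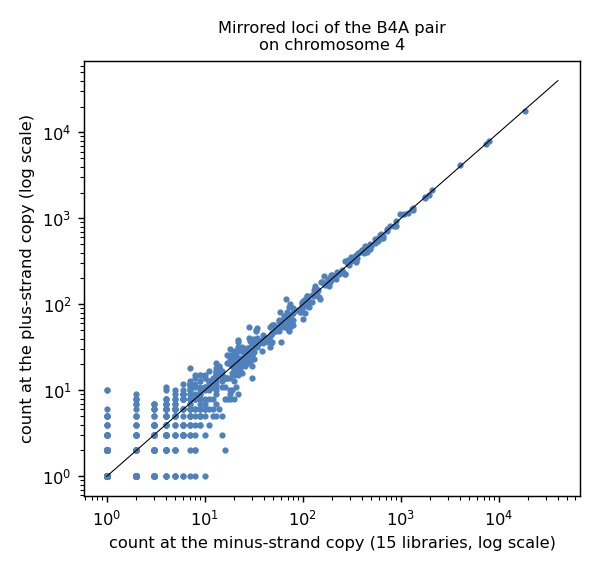
Counts summed over the 15 libraries of each locus common to both B4A copies on chromosome 4, at the minus-strand copy (x axis, log scale) against the plus-strand copy (y axis, log scale), with the line of equal counts. The points follow the line, most closely at high counts.

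A Ψ should raise a count in Ψ-IP and lower it after CMC, and loci with both changes were counted. Asking for both is stricter than either assay alone. Of 1980 B4 loci tested in both experiments, 2 were higher in Ψ-IP than in input and lower after CMC (0.101%), beside 0.298% of the 293568 loci of all kinds tested in both. The first was a 29-nt B4A locus at chr4:62221890-62221918 on the minus strand, in the intron of Zfp37, which was at 1.27, 1.70 and 1.44 CPM in input and at 1.9, 5.76 and 3.18 CPM in Ψ-IP (log2 change 1.29, SE 0.33, edgeR adjusted p = 0.00112). It was at 8.44, 8.17 and 7.40 CPM in mock-treated libraries and at 5.53, 4.21 and 5.0 CPM after CMC (log2 change −0.69, SE 0.15, edgeR adjusted p = 0.00237). Against flow-through, at 4.52 ± 1.18 CPM, Ψ-IP at 4.14 ± 2.24 CPM was not called (n = 3, log2 change −0.14, edgeR adjusted p = 0.842). This locus lies in the pair of near-equal copies, and its mate at chr4:62237610-62237638 was not called after CMC (log2 change −0.58, edgeR adjusted p = 0.0154). The second was the RSINE1 locus opposite Cbx7 given above, which was at 0.377, 0.495 and 0.250 CPM in input and at 0.519, 1.86 and 1.92 CPM in Ψ-IP (log2 change 1.96, SE 0.50, edgeR adjusted p = 0.001). Against flow-through, at 0.617, 0.338 and 0.212 CPM, it was at 0.580, 2.11 and 2.26 CPM in Ψ-IP, groups that overlap, and was called higher (log2 change 2.04, SE 0.62, edgeR adjusted p = 0.00821). This call was lost with DESeq2 (adjusted p = 0.0346), with the replicate block (0.0374) and without flow-through replicate 2 or 3 or Ψ-IP replicate 2 or 3 (0.0352 to 0.127). DESeq2 called 0 such B4 loci, and both calls against input were lost without input replicate 1 or 3 (adjusted p between 0.0145 and 0.0263). The Zfp37 locus also lost its call against input without Ψ-IP replicate 2 (adjusted p = 0.0811) and its CMC call without mock replicate 1 (0.0198), mock replicate 2 (0.0361) or CMC replicate 2 (0.0341). The RSINE1 locus also lost its call against input without Ψ-IP replicate 3 (adjusted p = 0.0277) and, as given above, its CMC call without mock replicate 2.

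Of 553 tested B4 copies, edgeR called 2 higher after CMC and 0 lower, where 0.422% of all 5445 copies were called higher and 0.992% lower. DESeq2 called 3 higher and 0 lower. In edgeR 70 B4 copies (12.7%) had an unadjusted p under 0.05, 37 of them in the lower direction, beside 14.7% of all copies. In DESeq2 39 B4 copies did, 20 of them in the lower direction. One of the 2, the ID copy at chr5:113334646-113334768 on the minus strand, outside genes, rose from 53.2, 33.5 and 39.1 CPM to 55.7, 60.2 and 61.4 CPM (log2 change 0.50, SE 0.11, edgeR adjusted p = 0.00927). It was not called in DESeq2 (adjusted p = 0.0836) nor without mock replicate 2 (0.129), mock replicate 3 (0.102), CMC replicate 2 (0.051) or CMC replicate 3 (0.0109). With the replicate block 4 copies were called higher and 5 lower (beside 0.900% and 1.71% of all copies), among the latter the ID copy on chromosome 17, which was at 399, 386 and 367 CPM in mock-treated libraries and at 360, 300 and 266 CPM after CMC (log2 change −0.32, edgeR adjusted p = 0.00015 with the block and 0.0278 without it). The Psma8 copy was lower with the block as well (log2 change −0.76, edgeR adjusted p = 0.00524) and was not called without it (adjusted p = 0.0373).

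The length of B4 piRNAs differed between the experiments and, by less, between groups. No B4 locus over 33 nt was counted in the 6 mock-treated and CMC-treated libraries, whereas such loci held 1.43% to 1.76% of B4 counts in input, 2.05% to 2.85% in flow-through and 1.04% to 1.18% in Ψ-IP, and the kit and any limit on read length cannot be told apart from the experiment. The 30-nt loci held 22.2% ± 0.91 of B4 counts in mock-treated libraries and 21.3% ± 1.04 after CMC (mean ± SD, n = 3, exact permutation test, two-sided, p = 0.4). They held 27.5% ± 0.08 in input, 28.5% ± 0.40 in flow-through and 29.4% ± 0.43 in Ψ-IP. Ψ-IP was above input in 9 of 9 pairs of libraries (exact permutation p = 0.1) and above flow-through in 8 of 9 pairs (exact permutation p = 0.2). Loci of 24 to 28 nt held 31% ± 0.56 of B4 counts in mock-treated libraries and 33.1% ± 0.61 after CMC, higher in 9 of 9 pairs (exact permutation p = 0.1), and the 26-nt loci in particular 7.99% ± 0.23 and 8.70% ± 0.24. Over loci of all kinds the 30-nt share ran from 29.7% to 30.04% in input and from 30.3% to 30.9% in Ψ-IP.

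**Figure D5:**
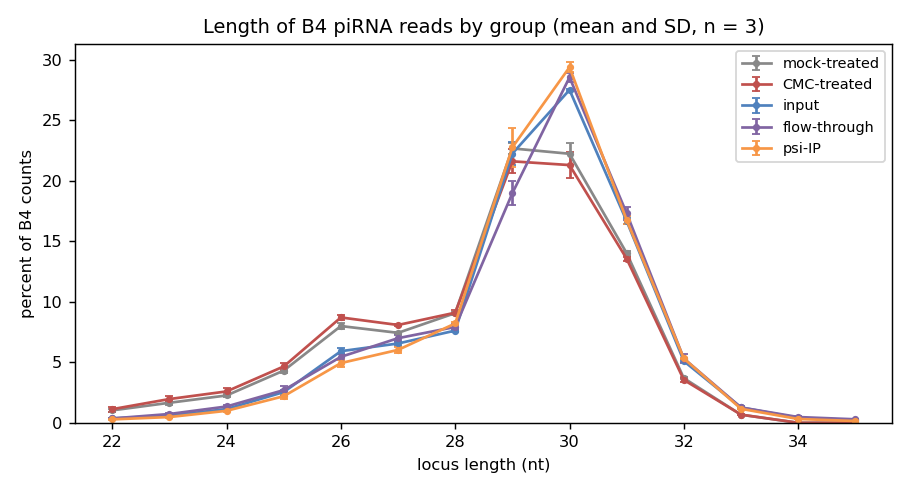
Percent of B4 counts (y axis) by locus length in nt (x axis) for the 5 groups, as mean and SD over 3 libraries. The CMC experiment peaks at 29 nt and holds more of the shorter loci, and the Ψ-IP experiment peaks at 30 nt.

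B4 piRNAs were close to single-stranded. Of the 1392 copies 542 (38.9%) had a copy of the opposite strand at the same place, but the minor strand held 0.983% of B4 CPM. In the input libraries, 435 pairs of 5′ ends on opposite strands overlapped by 10 nt, beside 317 to 349 pairs at each other overlap from 5 to 15 nt. Summing the smaller count of each pair gave 1386 counts at 10 nt, which is 0.764% of B4 input counts, and 731 to 935 counts at the neighbouring overlaps. The RSINE1 pair of D130017N08Rik printed above is among the pairs at 10 nt, the overlap of ping-pong partners. An overlap of 29 nt gave as many pairs (436, with 1523 counts), and no test was made between overlaps.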

How the data were processed

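The labels name total RNA from testis, fractionated on a urea gel. Per the methods of the study, the authors clipped adapters, kept reads of 14 to 44 nt, removed tRNA fragments, mapped the rest to mm10 with Bowtie2 allowing up to 3 mismatches and intersected them with the UCSC repeat annotation and with piRNA clusters using bedtools. They deposited 1 table of raw read counts per library. How reads with several genomic matches were placed is not given in the sources used here, so loci in near-identical copies are uncertain.

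The 15 count tables were joined by position, strand and repeat. Loci with more than 20 counts in total over the libraries of an experiment were tested with edgeR 4.0.16 in R 4.3.3 (quasi-likelihood test, TMM, Benjamini-Hochberg over all loci tested), and a locus was called at an adjusted p under 0.01. Copies, repeat names and families were tested as sums, with library sizes from the whole tables. CPM beside a test are scaled to 1000000 of the TMM-scaled library size of that comparison, so Ψ-IP values differ between comparisons. Shares of a length and ratios between families were compared by exact permutation tests. The study names DESeq2, which was run (1.42.0) as an alternative. Depth limits single loci to those in the more abundant few percent, and counts of reads without molecular identifiers carry PCR error beside counting error. Genes came from GENCODE vM21, overlapped with bedtools 2.31.1, and 2326 B4 loci (2.97%) were listed under another repeat as well. Named were every repeat name, the 5 most abundant loci and copies, the 3 largest called rises and falls of loci and the largest of copies in each comparison among those with at least 20 counts on average and 1 direction in all 9 pairs of libraries, and loci with both changes. Printed sequences, 5′ ends, the shortened loci and the paired copies on chromosome 4 were picked outside that rule, after their values were seen. The members, lists and tests were chosen with earlier results of these data known. Same-numbered CMC and mock libraries deviated together over 87515 loci (correlations 0.115, 0.135 and 0.278), so their numbers were taken to pair them, on the data and not on the labels. The scripts were tested on simulated counts.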

Additional observations from a re-analysis of the deposited data

How the results depend on the processing

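Of 1468 values recomputed under an alternative, 1285 stayed the same. For fold changes this meant the same direction and side of the threshold, and for shares of a length and ratios the same direction alone. Counts of loci or copies had to stay within 1.5 times. For Ψ-IP against input, the 210 loci higher and 515 lower became 125 and 302 with DESeq2 and 369 and 799 at an adjusted p under 0.05, and 100 were higher with no minimum count. Leaving out 1 library gave 94 to 220 higher and 289 to 490 lower, and for copies 19 to 29 higher and 25 to 39 lower, where DESeq2 gave 26 lower. For Ψ-IP against flow-through, the 289 higher and 165 lower became 192 and 101 with no minimum count and 441 and 351 at 0.05, and 109 to 149 were lower without 1 library. The family sum there was −0.14 with DESeq2 size factors (adjusted p = 0.0124) and with the DESeq2 test (adjusted p = 0.0688), and −0.22 to −0.16 without 1 library. The B4A sum there was −0.20 with DESeq2 and −0.23 to −0.16 without 1 library. For CMC, the 23 higher and 12 lower became 14 and 7 with no minimum count and 41 and 47 at 0.05, 11 were higher with DESeq2, and 21 were lower with loci of 24 to 33 nt alone. Without 1 library they were 9 to 24 and 3 to 44, and the copies 0 to 5 higher and 0 to 2 lower. With more than 60 counts 1 copy was higher. The replicate block, a term for the pairing of CMC with mock libraries, gave 34 loci lower, and 4 copies higher and 5 lower. Counting each locus once turned the difference in the 30-nt share after CMC to 0.0039. Loci with both changes were 0 with DESeq2 and 15 at 0.05. Calls of some named loci and copies were also lost with no minimum count or with more than 60 counts. Direct causes of these moves were not tested.

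In the Ψ-IP experiment same-numbered libraries did not all deviate together (correlations from −0.0572 to 0.289), so they share only a number. With the block there were 177 loci higher and 430 lower against input and 236 and 123 against flow-through, and no sum of a name or the family changed its call. Of the copies and loci named, the block added the call of the B4A copy at chr6:81898504-81898796 against input (adjusted p = 0.0018). It ended the calls against flow-through of the 32-nt B4A locus at chr17:27297404-27297435 (adjusted p = 0.0101) and of the RSINE1 locus opposite Cbx7 (adjusted p = 0.0374).

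Values that were not called and turned their sign when 1 library was left out are given by their range. The log2 ratio to Alu against input was −0.0025 to 0.0654 and to B2 after CMC −0.0163 to 0.0189. Against input the log2 changes were −0.017 to 0.46 for the Cbl locus, −0.055 to 0.75 for the 30-nt RSINE1 locus of Gm12648 and −0.10 to 0.015 for the B4A copy on chromosome 2. Against flow-through they were −0.35 to 0.46 for the Gm10069 locus, −0.60 to 0.17 for the Zfp37 locus with both changes and −0.19 to 0.025 for the plus-strand B4A copy on chromosome 4. After CMC they were −0.29 to 0.025 for the Cbl locus, −0.16 to 0.22 for the Gm12648 locus (−0.0073 with no minimum count), and −0.54 to 0.29 and −0.13 to 0.035 for the B4 copies on chromosomes 7 and 6. Depth limits single loci, as 6.51% of B4 loci could be tested in the Ψ-IP experiment.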

Other observations

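Input and mock-treated libraries are both testis small RNA without enrichment, but they were made with different kits in different experiments, which cannot be told apart, and no test was made between them. Of 58 B4 copies with at least 20 CPM of the library total in either group, 20 were at least 4-fold higher in input and 1 was at least 4-fold higher in mock-treated libraries, with a median log2 ratio of input to mock of 1.34. Copies of other repeats were not counted in this way, so the difference is not read as particular to B4. The ID copy at chr15:78666268-78666449 on the minus strand, outside genes, held 173, 237 and 181 CPM in input and 5.59, 4.98 and 4.87 CPM in mock-treated libraries. The ID copy at chr1:127483352-127483535 on the plus strand, in the UTR of Mgat5, a glycosyltransferase gene, held 84.2, 60.9 and 98.0 CPM in input and 1.6, 1.9 and 2.1 CPM in mock-treated libraries. The ID copy at chr19:37256110-37256279 on the minus strand, outside genes, ran the other way, at 17.8, 21.8 and 17.9 CPM in input and 86.8, 94.3 and 89.8 CPM in mock-treated libraries. These differences between experiments were larger than any change between Ψ-IP and input among the 20 most abundant copies.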
